A study of Mus musculus with 22 samples.

Results

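Otx2 and Six3, a pair of homeobox genes that pattern the early forebrain, were followed through 10 lists of histone mark peaks from purified cells of the developing mouse neocortex. The members are the 20 peaks, of 110069 in all lists, that overlap a window on chromosome 14 from 49.27 to 49.3 Mb for Otx2 (9 peaks) or on chromosome 17 from 86.01 to 86.03 Mb for Six3 (11 peaks), in mouse build mm9. The peak lists hold positions and no gene symbols, so the windows carry the gene names. Both genes lie on those chromosomes in the RefSeq gene table (gene IDs 18424 and 20473), which is of another build and was not used to place a peak. The table also lists the long non-coding RNAs Otx2os1 and Six3os1 beside them, and a peak could not be assigned to a gene rather than to its neighbouring transcript.

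The cells came from C57BL/6JOlaHsd embryos. Neurons (N), basal radial glia (bRG) and 2 kinds of apical radial glia, the neurogenic aRG-N and the proliferative aRG-P, were taken at E14.5 (E for embryonic day), and neuroepithelial cells (NEC) at E9.5. Neuroepithelial cells are the founder progenitors of the cortex, and radial glia descend from them. For each cell type, H3K4me3 and H3K27me3 were mapped by chromatin immunoprecipitation and sequencing in 2 samples per mark, and 2 Input samples pooled both ages. The aRG-N samples for H3K27me3 are technical replicates by their labels, which do not say how the cells were purified or how many embryos were used. The authors called each list on the combined samples of a cell type and mark, so the values carry no replicate spread and nothing was tested between cell types. NEC differ from the other cells in both age and cell type, and these cannot be told apart. A peak list of many cells also cannot separate a mark present in fewer cells from a lower level in each cell. Cell type markers could not be checked, since no expression was measured.

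H3K4me3 is deposited at the promoters of active genes and at poised ones. H3K27me3 is laid down by Polycomb repressive complex 2, often in broad domains over genes of developmental regulators that a cell does not express, and promoters of such genes can carry both marks in early progenitors. Otx2 encodes a bicoid-class homeodomain factor needed for the formation of the forebrain and midbrain. Six3 encodes a SIX-family homeodomain factor of the anterior neural plate that is needed for the rostral forebrain and the eye and that represses Wnt genes there. In the developing telencephalon both genes are known as early regional determinants.

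The promoters of both genes are shown from RefSeq (build GRCm38.p6), since CpG-rich promoter DNA is where both marks are commonly found. RefSeq held 4 promoter windows of 300 bases for Otx2, 1 for Six3 and 1 for Six3os1, the antisense transcript that neighbours Six3. Printed are the most upstream Otx2 start, the Otx2 start with the most CG dinucleotides, and the Six3 start. They are written in the direction of transcription with each CG in capitals. Their positions belong to GRCm38.p6 and cannot be set against the mm9 positions of the peaks.
Otx2, most upstream start, chr14:48667595-48667894, minus strand: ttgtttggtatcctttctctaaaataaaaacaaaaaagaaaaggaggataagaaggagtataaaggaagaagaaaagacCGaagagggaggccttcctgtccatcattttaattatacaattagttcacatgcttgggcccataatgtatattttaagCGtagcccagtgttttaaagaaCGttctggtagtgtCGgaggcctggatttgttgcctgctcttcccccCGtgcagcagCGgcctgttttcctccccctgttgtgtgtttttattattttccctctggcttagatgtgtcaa
Otx2, start with most CG, chr14:48665060-48665359, minus strand: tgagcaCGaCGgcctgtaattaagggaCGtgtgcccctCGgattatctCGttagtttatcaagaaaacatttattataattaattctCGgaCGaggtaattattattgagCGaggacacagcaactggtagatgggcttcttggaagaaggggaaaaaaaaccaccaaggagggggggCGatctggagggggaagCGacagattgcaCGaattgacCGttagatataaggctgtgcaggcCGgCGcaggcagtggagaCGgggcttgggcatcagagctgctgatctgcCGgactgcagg
Six3, chr17:85620584-85620883, plus strand: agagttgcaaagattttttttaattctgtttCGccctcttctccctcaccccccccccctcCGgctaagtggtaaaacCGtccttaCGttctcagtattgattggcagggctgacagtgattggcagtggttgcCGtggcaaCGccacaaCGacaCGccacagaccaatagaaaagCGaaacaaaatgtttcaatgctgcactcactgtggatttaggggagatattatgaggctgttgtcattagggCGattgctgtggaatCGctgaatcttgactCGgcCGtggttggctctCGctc

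The most upstream Otx2 window held 6 CG dinucleotides, and the printed Otx2 start with most CG held 16. The Six3 window held 14 and the Six3os1 window 20. The median of all 32851 promoter windows was 7, and 33.0% of them held at least 16 and 36.3% at least 14, so CG counts of this size were common. The CG-rich Otx2 window also held 1 match to TAATCC or its reverse complement GGATTA, the bicoid-class homeodomain site, which occurred in 7.06% of all promoter windows on either strand. The same window held 3 matches to TAATTA, a palindromic homeodomain core found in 5.29% of windows. Of the other Otx2 windows none held the bicoid-class site, and only the most upstream held TAATTA, with 1 match. The Six3 window held 3 matches to the CCAAT box, counted as CCAAT or ATTGG, which 37.4% of windows contained. No matches of different motifs overlapped in these windows. Such matches describe letters only.

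In E14.5 cells each window was covered almost throughout by 1 broad H3K27me3 domain per cell type and held no H3K4me3 peak, whereas in NEC both windows held strong, broad H3K4me3 and only partial H3K27me3. This contrast was part of how the genes were chosen, so it is given as a description. No H3K4me3 peak overlapped the Otx2 or the Six3 window in aRG-P, aRG-N, bRG or N. The NEC list held 3 H3K4me3 peaks at Otx2 and 4 at Six3.

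**Figure D1:**
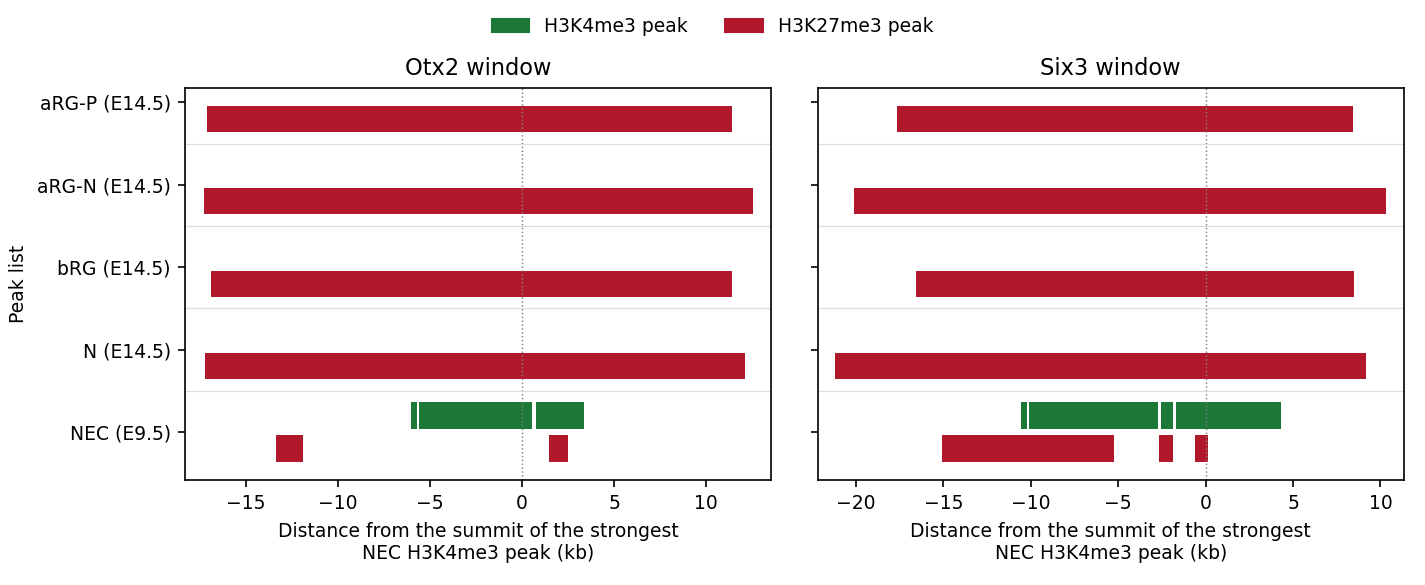
Peaks in the Otx2 and Six3 windows by list, with the distance in kb from the summit of the strongest NEC H3K4me3 peak on the horizontal axis, H3K4me3 peaks in green and H3K27me3 peaks in red. In the 4 E14.5 lists a single red bar spans nearly all of each window and no green bar is present, while the NEC row at the bottom has 3 green bars at Otx2 and 4 at Six3 with shorter red bars.

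At Otx2 the E14.5 H3K27me3 domains were nearly identical in extent. The domain ran from 49269629 to 49298160 in aRG-P (28.5 kb), from 49269450 to 49299277 in aRG-N (29.8 kb), from 49269843 to 49298155 in bRG (28.3 kb) and from 49269546 to 49298877 in N (29.3 kb). Its left edge differed by at most 393 bp and its right edge by at most 1122 bp among the 4 lists. In NEC the H3K27me3 peaks in this window were 2 short ones, from 49273381 to 49274836 (1456 bp) and from 49288217 to 49289233 (1017 bp), with 13.4 kb between them. The summed H3K27me3 length was 29.3 kb in N, 28.3 kb in bRG, 29.8 kb in aRG-N and 28.5 kb in aRG-P, against 2.47 kb in NEC, which is a ratio of 11.4 to 12.1 to the NEC length. With all lists of a mark cut to equal length NEC had 0 H3K27me3 peaks at Otx2, so this ratio and the NEC overlap of marks given below rest on peaks that the cut removed.

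These Otx2 domains were among the widest and highest-scoring of each E14.5 list. By width the domain ranked 49 of 5075 in aRG-P, 69 of 6830 in aRG-N, 33 of 3476 in bRG and 69 of 5734 in N. By the first H3K27me3 score, a value of the authors' peak caller that is used here only for ranks within a list, it stood at percentile 98.0, 98.3, 96.6 and 97.8 of the aRG-P, aRG-N, bRG and N lists. Both NEC peaks were ordinary for their list, at score percentiles 40.3 and 40.1 and width percentiles 41.2 and 28.0. The median H3K27me3 peak measured 1.62 kb in aRG-P, 1.97 kb in aRG-N, 1.89 kb in bRG, 2.08 kb in N and 1.84 kb in NEC.

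The NEC H3K4me3 at Otx2 formed an almost unbroken block of 9.39 kb. Its main peak, from 49281168 to 49287289, measured 6122 bp and had a fold enrichment of 43.8, a ratio to background that the authors' peak caller gave for each peak. The summit lay at 49286748, which is 542 bp from the right end of the peak. That peak ranked 26 by width among the 17867 NEC peaks and stood at percentile 98.0 by fold enrichment. A gap of 113 bp separated it from a short peak on its left (49280722 to 49281054, fold enrichment 6.90). A gap of 199 bp separated it from a wider, weaker peak on its right (49287489 to 49290108, 2620 bp, fold enrichment 9.27). The right-hand peak was the only one of the 3 under NEC H3K27me3, over 1017 bp.

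Every base of NEC H3K4me3 at Otx2 lay under H3K27me3 in each E14.5 list, 9075 of 9075 bp, against 1017 bp (11.2%) in NEC itself. The stretch of H3K27me3 common to the 4 E14.5 lists reached 10.9 kb further left and 8.05 kb further right than the NEC H3K4me3 block.

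Six3 had a wider NEC H3K4me3 block than Otx2, and its E14.5 H3K27me3 domains differed more among the lists. The domain ran from 86004127 to 86030177 in aRG-P (26.1 kb), from 86001635 to 86032087 in aRG-N (30.5 kb), from 86005180 to 86030253 in bRG (25.1 kb) and from 86000582 to 86030939 in N (30.4 kb). The left edges differed by up to 4598 bp and the right edges by up to 1910 bp. All of these edges lay outside the Six3 window, which every E14.5 domain covered in full. In bRG a separate short peak from 86002486 to 86002964 lay just outside the window, within the stretch that the aRG-N and N domains covered. The bRG list was also the shortest H3K27me3 list, and the part of list length in its narrower domain was not tested. The wider domains came from N, called with reads extended by 200 bp, and from aRG-N, whose samples are technical replicates. The part of these differences in the domain widths was not tested.

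In NEC, H3K27me3 at Six3 was already more extended than at Otx2. The longest NEC peak ran from 86006708 to 86016511 (9.80 kb), and shorter ones ran from 86019101 to 86019893 (793 bp) and from 86021168 to 86021923 (756 bp). Summed H3K27me3 length at Six3 was 26.1 kb in aRG-P, 30.5 kb in aRG-N, 25.1 kb in bRG and 30.4 kb in N, against 11.4 kb in NEC, a ratio of 2.21 to 2.68 to the NEC length. As at Otx2, these lengths count whole peaks with their parts outside the window. Clipped to the window, the E14.5 domains together measured 80004 bp in place of 111936 bp, and the NEC peaks 8061 bp in place of 11353 bp. The NEC peak of 9.80 kb stood at percentile 95.5 of its list by width and 68.2 by score. The E14.5 domains stood at score percentiles 98.0 in N, 97.7 in bRG, 99.7 in aRG-N and 99.1 in aRG-P. In aRG-N the Six3 domain ranked 20 of 6830 peaks by score.

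**Figure D2:**
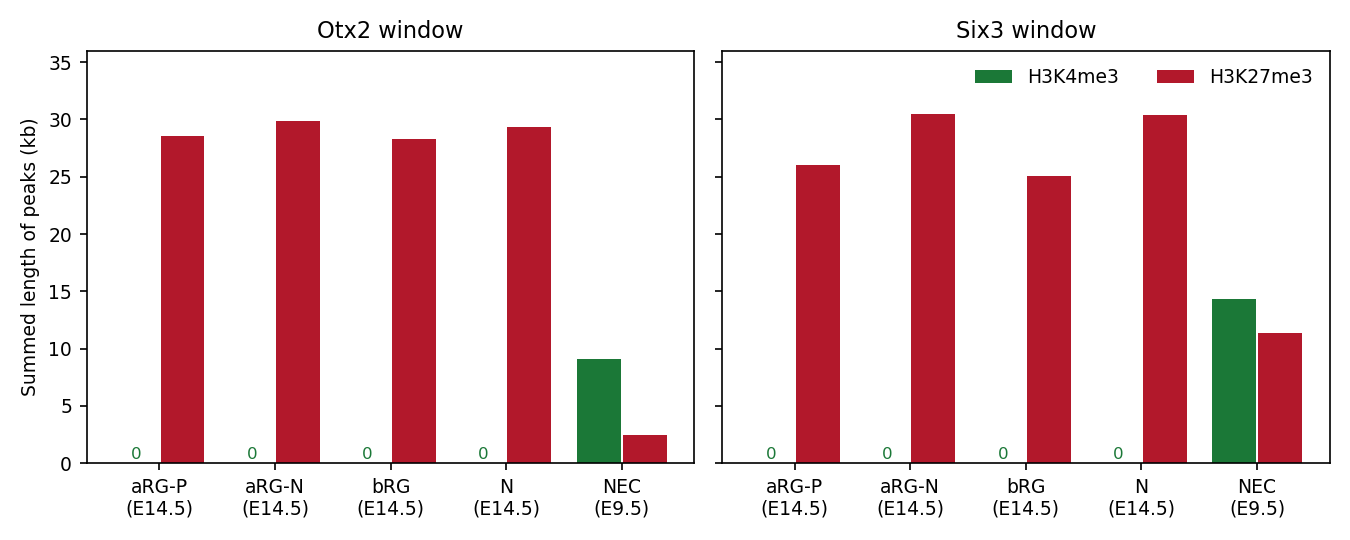
Summed length in kb of the H3K4me3 (green) and H3K27me3 (red) peaks that overlap each window, for the 4 E14.5 lists and NEC. Whole peaks are summed, with their parts outside the window. A 0 marks lists without a peak, and there are no error bars because each list was called on combined samples. The H3K27me3 bars lie between 25.1 and 30.5 kb at E14.5 and at 2.47 kb (Otx2) and 11.4 kb (Six3) in NEC, the one list with H3K4me3 bars.

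The NEC H3K4me3 at Six3 spanned 14.8 kb with 3 gaps of 107 to 185 bp. The peak with the highest fold enrichment, 43.3, ran from 86020069 to 86026069 (6001 bp) and stood at percentile 97.7 of the NEC list. To its left lay a wider peak from 86011676 to 86019048 (7373 bp, fold enrichment 30.0), which ranked 11 by width in the NEC list. The remaining peaks, from 86011228 to 86011568 and from 86019234 to 86019884, both had a fold enrichment of 5.42. All 4 NEC peaks at Six3 overlapped NEC H3K27me3, and 6584 of their 14366 bp (45.8%) lay under it. In each E14.5 list all 14366 bp lay under H3K27me3. The common E14.5 stretch exceeded the NEC block by 6.05 kb on the left and 4.11 kb on the right.

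Overlap of the marks in NEC thus took different forms at these genes. At Otx2 the strong H3K4me3 peak was free of H3K27me3, which touched the weaker right-hand peak. At Six3 the 9.80 kb H3K27me3 peak covered 65.6% of the wider H3K4me3 peak, and a short one covered 12.6% of the strongest. With lists of equal length NEC kept only the 9.80 kb H3K27me3 peak at Six3, which ends left of the strongest H3K4me3 peak. The strongest H3K4me3 peak was then free of H3K27me3 at both genes, so their difference in this peak rests on a call that the cut removed. Overlap between lists of many cells does not put H3K4me3 and H3K27me3 together in 1 cell.

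The absence of H3K4me3 at E14.5 could be checked against the numbers that the authors' peak caller gave to successive peaks, some of which are not in the lists used here (8.63% of numbers in bRG to 10.9% in aRG-N among the E14.5 H3K4me3 lists). Numbers never decreased along a chromosome in all 10 lists. At Otx2, the nearest listed H3K4me3 peaks on the left and right of the window had consecutive numbers in aRG-P (4905 and 4906), aRG-N (4650 and 4651), bRG (4608 and 4609) and N (4873 and 4874). No E14.5 H3K4me3 call was therefore left out of a list between them. At Six3 the numbers were consecutive in aRG-P, bRG and N, and in aRG-N 1 call between the flanking listed peaks was not in the list. Its position within the interval from 85490688 to 86543697 is unknown. The lowest fold enrichment of any listed E14.5 H3K4me3 peak was 1.47 in N, 2.06 in bRG, 1.80 in aRG-N and 1.30 in aRG-P. The H3K4me3 lists also differed in fold enrichment as a whole, with medians of 8.26 (N) to 11.8 (aRG-N) at E14.5, against 18.7 in NEC, and highest values of 20.6 to 33.3 at E14.5, against 63.5 in NEC. Its part in the absence of E14.5 peaks was not tested. Read depth is unknown, and a level of H3K4me3 too low to be called cannot be told from none. The NEC H3K27me3 values carry a limit of the same kind, since 30.9% of its peak numbers are not in the list used here. No number was missing between or just left of the Otx2 peaks, but 3 calls between 49289233 and 50145574 are unlisted and may lie in the window. At Six3 no number was missing among or just right of the NEC H3K27me3 peaks, and 2 calls between 84035647 and 86006708 are unlisted. Unlisted numbers made up 17.8% in NEC H3K4me3 and 26.5% (bRG) to 36.6% (aRG-N) in E14.5 H3K27me3. No number was missing among the NEC H3K4me3 peaks of either gene. Beside them, 3 calls between 49290108 and 49684942 are unlisted at Otx2. At Six3, 12 between 85490818 and 86011228 and 3 between 86026069 and 86086884 are unlisted, and some may lie in the windows.

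The nearest H3K4me3 peaks outside the Otx2 window were present at both ages. On the left, at about 203 kb, a peak lay at 49065861 to 49066619 in aRG-P, 49065772 to 49066731 in aRG-N, 49065807 to 49066675 in bRG and 49065840 to 49066818 in N, against 49065760 to 49067037 in NEC. Within its own list it stood at percentile 86.1 in bRG, 97.6 in aRG-N, 88.7 in aRG-P and 87.7 in N, against 80.2 in NEC. On the right, at about 385 kb, a peak beginning between 49684965 (bRG) and 49685129 (aRG-P) at E14.5, and at 49684942 in NEC, was likewise in all 5 lists. Around Six3 the nearest E14.5 H3K4me3 peaks were further away, at about 519 kb on the left and 514 kb on the right.

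Exchange of the marks was counted over all NEC H3K4me3 peaks as the background for the members. An exchange means that a NEC H3K4me3 peak overlapped no H3K4me3 peak and at least 1 H3K27me3 peak of an E14.5 list, with a minimum overlap of 1 bp. All 7 NEC members met this in each E14.5 list, against 9.33% of the 17867 NEC peaks in N, 7.51% in bRG, 7.56% in aRG-N and 7.72% in aRG-P. In lists of equal length these shares were 6.07%, 4.99%, 3.47% and 4.95% in the same order, and the 4 NEC members left all met it. In all 4 lists together 844 peaks (4.72%) met it, with an exact binomial 95% interval of 4.42 to 5.05% that covers counting error only. The members were chosen on this contrast, so their count adds nothing to it, and peaks of 1 window are not independent of each other.

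The members were also set among NEC peaks at least as strong or as wide, with cutoffs taken from the members themselves. A fold enrichment of at least 43.3, that of the strongest Six3 peak, was reached by 437 NEC peaks, of which 3 had no H3K4me3 peak in any E14.5 list. Those were the main peaks of Otx2 and Six3 and a peak on chromosome 4 from 133571168 to 133575153. A width of at least 6001 bp was reached by 28 NEC peaks, of which 4 had no E14.5 H3K4me3 peak. These were the main Otx2 peak, both wide Six3 peaks and a peak on chromosome 6 from 23194233 to 23204290. All of them overlapped H3K27me3 in the 4 E14.5 lists. The members were chosen for the exchange and had to be among them. Without members the exchange in all 4 E14.5 lists was seen at 1 of 435 peaks past the fold enrichment and 1 of 25 past the width. Over all NEC peaks, 15.2% had no H3K4me3 peak in any E14.5 list.

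**Figure D3:**
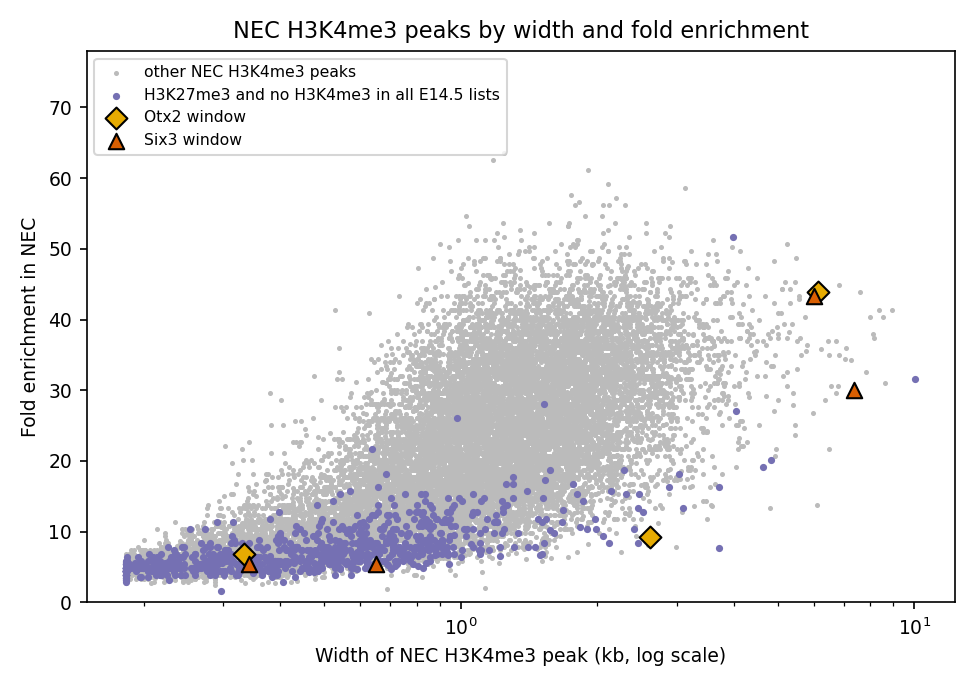
Fold enrichment of each of the 17867 NEC H3K4me3 peaks against its width in kb (log scale), with peaks overlapping H3K27me3 and no H3K4me3 in all 4 E14.5 lists in purple and the members as diamonds (Otx2) and triangles (Six3). Most purple points lie at low fold enrichment, and 1 Otx2 and 2 Six3 peaks lie at the upper right, at widths of 6001 to 7373 bp.

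Among peaks with the same presence and absence over all lists, the main peaks stood at or near the top. The main peak was taken as the one with the highest fold enrichment at its gene, a choice that favours a high rank. The pattern of the main Otx2 peak, without H3K27me3 in NEC, was shared by 62 NEC peaks (0.347%), and that of the main Six3 peak, with H3K27me3 in NEC, by 782 (4.38%). The short left-hand Otx2 peak had the first pattern, and the right-hand Otx2 peak and all Six3 peaks had the second. The main Six3 peak had it only through a NEC H3K27me3 peak of 756 bp, at score percentile 43.1, which the cut to equal length removed. Its rank among the 782 and the width comparison below depend on that call. The main Otx2 peak was the widest of its 62 and the second by fold enrichment, and the main Six3 peak the first of its 782 by fold enrichment. The median fold enrichment was 6.90 over the 62 peaks and 6.40 over the 782. The members that were not main peaks had values from 5.42 to 30.0, with 6.90 for the short Otx2 peak. Just above the main Otx2 peak stood the chromosome 4 peak with 51.7, and just below it a peak on chromosome 10 from 93296222 to 93297749 with 28.1. The peak just below the main Six3 peak was the one on chromosome 6, with 31.5.

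Other peaks of the first pattern with high fold enrichment lay on chromosome 2 from 158201274 to 158202254 (26.1) and on chromosome 3 from 96205475 to 96206112 (21.7). A last one lay on chromosome 4 from 133575358 to 133576043 (18.2), beside the strongest. For the second pattern they lay on chromosome 5 from 120881898 to 120885945 (27.1), chromosome 19 from 59242045 to 59246885 (20.2), chromosome X from 138155041 to 138159693 (19.2) and chromosome 7 from 77509678 to 77511964 (18.7). The E14.5 H3K27me3 over the Otx2 window was long for the pattern of the main Otx2 peak. Taking for each peak the E14.5 list in which the overlapping H3K27me3 peak was narrowest, that width was 28.3 kb at Otx2 against a median of 2.05 kb over the 62 peaks. At 0 of the 60 other peaks was it as large. The right-hand Otx2 peak, under the same domains, had the second pattern and is not among the 62. Joined across gaps up to 3000 bp, the NEC H3K4me3 at Otx2 was 1 peak, partly under NEC H3K27me3. The comparison and the ranks among the 62 thus depend on calling the peaks of this block separately. At Six3 the same value was 25.1 kb against a median of 4.54 kb over the 782, and 49 peaks outside both windows had a value at least as large.

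**Figure D4:**
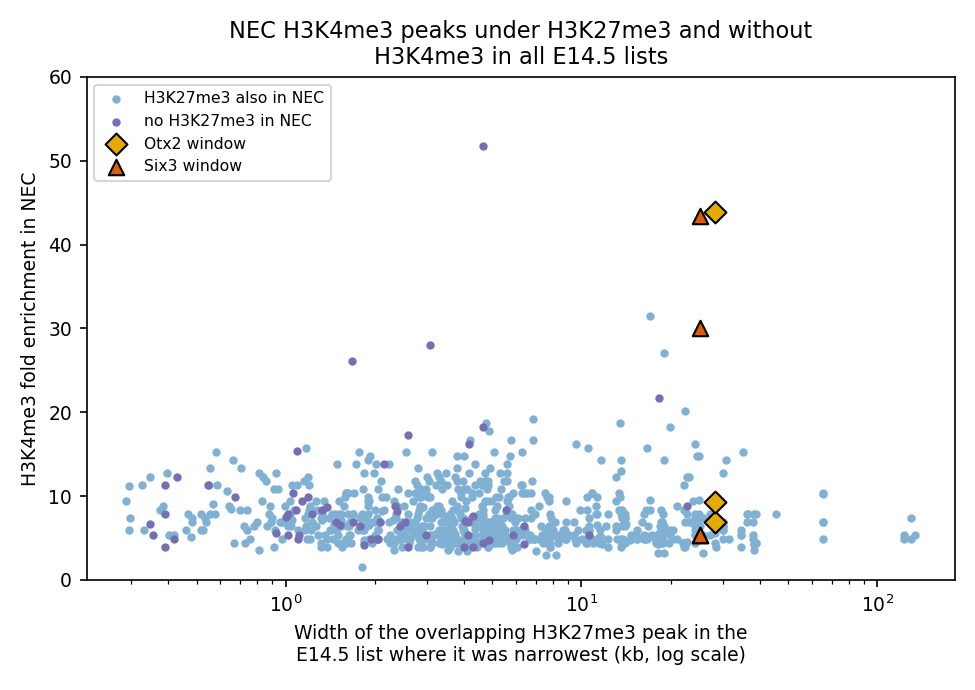
H3K4me3 fold enrichment in NEC against the width in kb (log scale) of the overlapping H3K27me3 peak in the E14.5 list where it was narrowest, for the 844 NEC peaks without H3K4me3 and with H3K27me3 in all 4 E14.5 lists. Light blue points had H3K27me3 in NEC and purple points had none; the members lie at 28.3 kb (Otx2, diamonds) and 25.1 kb (Six3, triangles), and the 3 highest member points have fold enrichments of 43.8, 43.3 and 30.0.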

How the data were processed

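Peak lists of H3K4me3 and H3K27me3 from 5 cell types were analysed, and the 2 Input samples were left out. The submitters' processing notes list build mm9 and the tools Bowtie 1.0.0, MACS2 and bedtools. Per the peak names, each deposited list was called on combined samples, most after duplicate removal, with reads extended by 200 bp for N H3K27me3 and with an excluded set for aRG-P H3K27me3. Per the file headers, the listed peaks lie near transcripts, within 2000 bp in the headers of aRG-N and aRG-P H3K4me3.

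The deposited H3K4me3 values are the peak caller's fold enrichment, a ratio, with −log10 p, −log10 q and a summit. The deposited H3K27me3 columns are called a score, since column 9 exceeded column 8 in every peak and their meaning could not be settled. Read depth is unknown.

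Overlaps of at least 1 bp were computed with Python 3.11.15, numpy 2.4.6 and pandas 2.3.3, intervals (Clopper-Pearson, 95%) with scipy 1.17.1, and figures with matplotlib 3.10.9. On simulated lists made from the 17867 NEC H3K4me3 peaks, all 200 planted exchanges and no others were called. The planted H3K27me3 peaks were the removed H3K4me3 peaks themselves, so this checks the overlap code only. Positions are 1-based. All member peaks are described, and like regions were the 5 with the highest NEC fold enrichment and the same presence over the lists that are no members. The members, lists and rules were chosen with earlier results of these data known. No list of pathway genes was analysed here, since the lists pair no symbols with positions. The alternatives are given in the closing section.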

Additional observations from a re-analysis of the deposited data

How the results depend on the processing

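All 7 NEC H3K4me3 members met the exchange in each E14.5 list with an overlap of at least 50%, with no H3K4me3 peak within 5000 bp, with a −log10 q of at least 5 and on autosomes alone, and the 4 exchange counts then stayed within 1.5 times those reported. In lists of equal length (14801 H3K4me3 and 3476 H3K27me3 peaks each) the counts were 899 in N, 739 in bRG, 513 in aRG-N and 733 in aRG-P, of 14801 NEC peaks. At equal length NEC kept 2 H3K4me3 peaks at Otx2 and 2 at Six3, all of which met the exchange in each E14.5 list. NEC H3K27me3 then had 0 peaks and 0 bp at Otx2, and 1 peak at Six3. Joining peaks across gaps up to 3000 bp left 1 NEC H3K4me3 peak at each of Otx2 and Six3 and 1 NEC H3K27me3 peak at Six3. Each E14.5 list kept its H3K27me3 domain and 0 H3K4me3 peaks at both genes under every setting that was run for them. Widening the windows by 20000 bp moved no count, and clipping peaks to the window no length, by over 1.5 times. Clipping did cut the summed E14.5 H3K27me3 length at Six3 from 111936 to 80004 bp. No replicate could be left out and no paired analysis was possible because each list was called on combined samples.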

Other observations

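Within 200 kb of the Six3 window, a second H3K27me3 domain to its right was present in all 5 lists, a region chosen after its values were seen. It ran from 86071702 to 86094243 in aRG-P, 86070261 to 86096380 in aRG-N, 86078218 to 86093602 in bRG and 86076291 to 86096153 in N, against 86078112 to 86093714 in NEC. Its lengths were 19.9 kb in N, 15.4 kb in bRG, 26.1 kb in aRG-N and 22.5 kb in aRG-P, against 15.6 kb in NEC. In NEC this domain stood at score percentile 99.4 and ranked 56 of 9460, whereas the highest-scoring NEC H3K27me3 peak in the Six3 window stood at percentile 68.2. It held no H3K4me3 peak at E14.5 and 3 short ones in NEC, with fold enrichments of 4.93, 4.93 and 5.91. In the RefSeq gene table the next coding gene after Six3 is Six2, another SIX-family homeobox gene, but the domain could not be assigned to a gene in mm9.

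To the left of Six3, also chosen after its values were seen, an H3K27me3 domain was in the 4 E14.5 lists and not in the NEC list. It ran from 85850785 to 85867072 in aRG-P, 85850526 to 85875288 in aRG-N, 85853411 to 85867028 in bRG and 85852075 to 85878227 in N, and no list held an H3K4me3 peak there. By their peak numbers, 2 NEC H3K27me3 calls between 84035647 and 86006708 are not in the list used here, and whether one lay in this domain is unknown. Unlisted as well are 12 NEC H3K4me3 calls between 85490818 and 86011228 and 1 aRG-N H3K4me3 call, whose positions are unknown. Within 200 kb of the Otx2 window the lists held 1 further peak of either mark, an N H3K27me3 peak of 835 bp from 49123763 to 49124597.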
